A study of Mus musculus with 10 samples.

Results

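Chromatin accessibility was examined at 37 genes of T cell receptor (TCR) signalling in regulatory T cells (Tregs) that lacked or kept Vps34, the class III phosphatidylinositol-3-kinase encoded by Pik3c3. The genes were listed by name for their place in the pathway, and a peak was taken as theirs when it lay in the gene body or within 10 kb of it in the GRCm38 annotation. This gave 585 of the 97385 peaks in the series, and 583 of them passed the filter on low counts. Per gene there were 5 to 43 peaks, with a median of 14, and 5 peaks lay within reach of more than 1 gene. Assignment was by position alone, and no expression was measured in these libraries.

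The assay was bulk ATAC-seq, in which the Tn5 transposase inserts adaptors into open DNA. TCRb+CD4+Foxp3-YFP+ Tregs were sorted from 2 organs, spleen and lung, of mice aged 10 days, all of which carried Foxp3Cre, a Cre recombinase expressed from the Foxp3 locus together with YFP, so that deletion was restricted to Foxp3-expressing cells. Control mice were Foxp3Cre Pik3c3 +/+ or Foxp3Cre Pik3c3 +/fl, and the titles of the control libraries call them WT without saying which of these genotypes each had. Vps34-deficient mice were Foxp3Cre Pik3c3 fl/fl. Spleen gave 2 control and 4 Vps34-deficient libraries, and lung gave 2 of each genotype. The labels do not say how many animals gave each library, so the p-values measure the spread between libraries.

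The TCR has no enzymatic activity of its own. Its CD3 and zeta chains are phosphorylated by the Src family kinases Lck and Fyn and recruit Zap70, which phosphorylates the scaffolds Lat and SLP-76 (encoded by Lcp2), and phospholipase C gamma then feeds branches that reach NFAT through calcium, NF-kB through protein kinase C theta, and Ras. Phosphatases, ubiquitin ligases and diacylglycerol kinases restrain each of these steps, and Tregs depend on TCR signals to form and maintain their effector state.

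Total counts per library were 9405823 to 14172956 in lung and 13932355 to 22439699 in spleen. A peak was called when the quasi-likelihood test of edgeR, Benjamini-Hochberg adjusted across all 97109 tested peaks, gave an adjusted p below 0.05 and the log2 fold change lay beyond 0.5. Promoter peaks were found at 7 of 7 Treg and T cell marker genes, with a summed level of 187 to 216 CPM (counts scaled to the library total) in spleen and 155 to 209 in lung. There was no promoter peak at the B cell genes Cd79a and Ms4a1, at the myeloid genes Lyz2, Csf1r and Cd68, or at Sftpc, Cdh5, Tek, Ncr1 and Klrb1c. The other 3 of 6 genes of the myeloid list (Spi1, Cebpa and Itgam) had promoter peaks that summed to 27.5 to 30.6 CPM in lung controls, 15.7 to 18.6 in lung Vps34-deficient libraries, 19.4 to 23.1 in spleen controls and 14.7 to 18.3 in spleen Vps34-deficient libraries. This sum was lower in every Vps34-deficient library than in the controls of its tissue, and most of it came from 2 peaks of Cebpa, with group means of 15.3 and 4.33 CPM in spleen controls and 11.5 and 3.02 without Vps34. In spleen the means of Spi1 (0.710 and 0.826 CPM) and Itgam (0.946 and 1.22) were higher without Vps34, and in lung those of all 3 genes were lower. The B cell genes with a promoter peak (Cd79b, Pax5 and Ebf1) summed to 16.9 to 23.5 CPM in spleen, where the genotypes overlapped, and to 22.9 to 25.8 in lung controls against 21.6 to 22.0 in lung Vps34-deficient libraries. Cd8a, Cd8b1 and Eomes summed to 25.7 to 36.0 CPM in spleen, where the genotypes overlapped, and to 24.1 to 28.4 in lung controls against 33.6 to 34.7 in lung Vps34-deficient libraries, which did not overlap. Epcam, Nkx2-1 and Pecam1 summed to 48.1 to 53.2 CPM in spleen and 44.1 to 56.2 in lung. Within these sums Nkx2-1 was higher in lung, with control and Vps34-deficient means of 0.834 and 0.697 CPM in spleen and 1.86 and 1.74 in lung (log2 fold change 1.26, adjusted p = 0.0157). Pax5 was higher in lung too, with 0.378 and 0.771 CPM against 1.24 and 1.69 (1.35, adjusted p = 0.0124). The promoter peaks of Epcam, Pecam1, Cd79b and Ebf1 all had an adjusted p above 0.05 for tissue. In bulk libraries, fewer cells of a type and less accessibility per cell cannot be told apart.

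Sequences are shown for the member peaks with the smallest p-values in each direction, so that the DNA under these differences can be read, and all the windows printed here lay in introns. They were taken from the GRCm38.p6 assembly, plus strand, as the 300 bases about the centre of a peak, or the whole peak where it was shorter. Capitals mark matches on either strand to TGANTCA (the AP-1 consensus), TGGAAA (NFAT), TGTGGT (Runx), CCGGAAGT (Ets), CTTTGAT (TCF/LEF) or the NF-kB consensus. The first pair had the smallest p-values among member peaks lower in Vps34-deficient Tregs, and lay in introns of Ptpn22 (chr3:103907676-103907975) and Rcan1 (chr16:92443670-92443969).
Ptpn22: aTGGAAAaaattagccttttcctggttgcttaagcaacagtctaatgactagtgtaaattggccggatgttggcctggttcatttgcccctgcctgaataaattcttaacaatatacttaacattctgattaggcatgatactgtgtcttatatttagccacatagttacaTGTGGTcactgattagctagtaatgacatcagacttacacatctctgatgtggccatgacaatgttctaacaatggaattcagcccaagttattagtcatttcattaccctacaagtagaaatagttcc
Rcan1: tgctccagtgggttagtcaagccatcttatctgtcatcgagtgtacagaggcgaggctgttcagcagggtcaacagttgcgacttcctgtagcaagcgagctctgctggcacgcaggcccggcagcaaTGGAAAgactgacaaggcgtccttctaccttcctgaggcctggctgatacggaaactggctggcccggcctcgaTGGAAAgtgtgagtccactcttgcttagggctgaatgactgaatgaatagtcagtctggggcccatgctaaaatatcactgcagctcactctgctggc
The Ptpn22 window held 1 NFAT and 1 Runx match, and the Rcan1 window held 2 NFAT matches.

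Higher in Vps34-deficient Tregs were introns of Nfatc2 (chr2:168532463-168532762), whose window held 1 AP-1 match, and of Themis (chr10:28776983-28777282), whose window held no match.
Nfatc2: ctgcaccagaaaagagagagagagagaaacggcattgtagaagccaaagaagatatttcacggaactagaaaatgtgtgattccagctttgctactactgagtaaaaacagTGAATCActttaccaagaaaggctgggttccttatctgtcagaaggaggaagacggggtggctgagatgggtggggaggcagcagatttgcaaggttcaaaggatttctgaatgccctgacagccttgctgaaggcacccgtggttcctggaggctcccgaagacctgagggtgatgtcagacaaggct
Themis: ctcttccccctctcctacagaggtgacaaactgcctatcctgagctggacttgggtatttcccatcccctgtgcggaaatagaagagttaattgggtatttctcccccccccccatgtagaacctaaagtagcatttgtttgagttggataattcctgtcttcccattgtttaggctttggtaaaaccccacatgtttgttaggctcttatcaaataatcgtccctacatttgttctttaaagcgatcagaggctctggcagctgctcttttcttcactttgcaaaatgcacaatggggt
For the difference between tissues, the windows were an intron of Fyn that was less accessible in lung (chr10:39522027-39522326) and introns of Cblb (chr16:52147349-52147648) and Pag1 (chr3:9698382-9698591) that were more accessible there. The peak of Cd247 that had the smallest p-value among those lower in lung overlaps a coding exon and is not printed.
Fyn: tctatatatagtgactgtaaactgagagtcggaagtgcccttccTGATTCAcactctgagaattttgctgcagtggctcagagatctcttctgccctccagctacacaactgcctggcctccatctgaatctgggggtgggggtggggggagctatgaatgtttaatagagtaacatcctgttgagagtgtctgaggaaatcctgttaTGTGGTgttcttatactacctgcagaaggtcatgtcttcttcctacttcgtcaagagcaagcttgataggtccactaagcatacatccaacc
Cblb: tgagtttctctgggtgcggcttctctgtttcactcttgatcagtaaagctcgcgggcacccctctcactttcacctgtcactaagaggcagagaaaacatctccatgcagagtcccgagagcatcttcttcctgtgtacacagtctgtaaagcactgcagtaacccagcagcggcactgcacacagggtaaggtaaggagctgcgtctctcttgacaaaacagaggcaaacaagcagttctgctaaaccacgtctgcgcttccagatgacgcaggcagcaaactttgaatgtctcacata
Pag1: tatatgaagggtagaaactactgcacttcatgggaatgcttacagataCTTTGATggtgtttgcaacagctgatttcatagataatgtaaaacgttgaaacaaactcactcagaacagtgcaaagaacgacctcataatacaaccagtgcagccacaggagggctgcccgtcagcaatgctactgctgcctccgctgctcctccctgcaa
Fyn held 1 AP-1 and 1 Runx match, Pag1 held 1 TCF/LEF match and Cblb held none. These matches are letters in a window and not sites of binding.

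In 300-base windows of all 96974 tested peaks on the chromosomes, 13.0% held the AP-1 letters and 26.5% the Runx letters. Among the 583 member windows the shares were 15.4% and 32.6%. AP-1 letters were present at 9 of the 19 member peaks that were lower in Vps34-deficient Tregs, or 47.4%, beside 29.8% of all 3932 windows of peaks lower in that comparison. They were also present at 4 of the 10 member peaks that were higher, or 40.0%, beside 13.1% of all 3414. The AP-1 matches among lower peaks fell in Cd2, Fyn, Grap2, Ppp3ca and Ubash3b. NFAT letters were found at 7 of the 19 lower and at none of the 10 higher member peaks, beside 23.8% of all lower and 27.4% of all higher peaks. Runx letters were at 11 of the 19 lower (57.9%) and 4 of the 10 higher member peaks, beside 42.6% and 23.7%. The counts are small and were not tested.

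To ask how loss of Vps34 changed accessibility at these genes, Vps34-deficient and control Tregs were compared with both tissues in one model. Of the 583 member peaks, 10 were more accessible and 19 less accessible without Vps34, or 4.97%, against 7.57% of all tested peaks (3.52% higher and 4.06% lower). The median log2 fold change was 0.00 over the members and 0.04 over all peaks. All 10 higher and all 19 lower peaks lay outside the promoters of the member genes, as did 517 of the 583 tested member peaks. Of these 29, 23 were in introns, beside 383 of all 585 member peaks. Calls were spread over 17 of the 37 genes, of which 8 had only higher and 9 only lower peaks, with no gene having both. Only Cblb, Cd6, Fyn, Grap2, Ppp3ca, Ptpn22 and Ubash3b had more than 1 call and could have had both. In lung alone 2 genes had calls in both directions. In this comparison the count ran from 18 to 36 when single libraries were left out, with 18 without lung Vps34-deficient replicate 1 and 19 without spleen control replicate 2. The balance went to 13 higher and 12 lower without lung Vps34-deficient replicate 2. The part of the myeloid marker promoters, whose sum was lower without Vps34 in lung at all 3 genes and in spleen through Cebpa alone, was not tested.

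**Figure D1:**
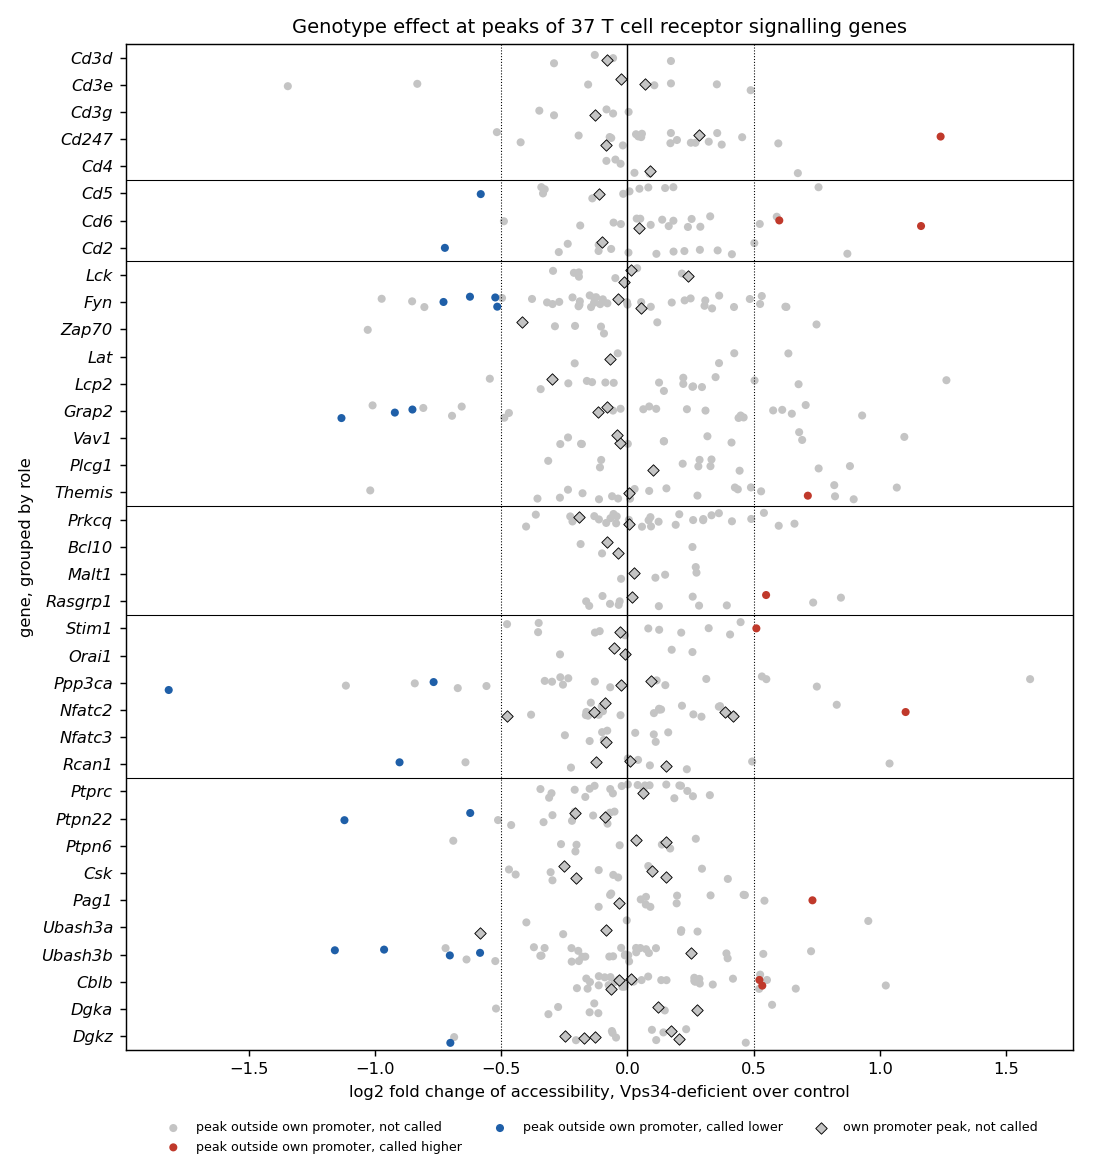
Log2 fold change of accessibility in Vps34-deficient over control Tregs (x axis) for each peak of each gene (y axis, grouped by role), with called peaks in color, own promoter peaks as diamonds and dotted lines at the fold threshold of 0.5. The 10 called higher peaks and the 19 called lower peaks are all circles, and none of the genes with more than 1 call has both colors.

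Of the 45 receptor and coreceptor peaks, 9 (20%) had an unadjusted p below 0.05 for genotype, beside 24.3% of all peaks. None of the 22 tested peaks of Cd3d, Cd3e, Cd3g and Cd4, which encode the CD3 chains and the coreceptor that brings Lck to the complex, could be called in the average over tissues. Only 1 of 45 receptor peaks was called, a 211-bp peak downstream of Cd247, the gene of the zeta chain (chr1:165877944-165878154), with 0.517 and 0.687 CPM in spleen controls and 0.868 to 2.84 in spleen Vps34-deficient libraries. In lung it had 1.53 and 1.62 CPM in controls and 2.16 and 3.43 without Vps34. Its log2 fold change was 1.24 ± 0.36 (SE; adjusted p = 0.031). The coding exon peak of Cd247 had an adjusted p of 0.0214 with a log2 fold change of 0.45 ± 0.12 (SE), short of the fold threshold.

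Among the surface modulators, the adhesion receptor gene Cd2 had a less accessible intron (chr3:101285781-101286133). Its spleen controls had 16.1 and 18.1 CPM against 11.9, 12.9, 11.9 and 13.5 in the Vps34-deficient libraries, and its lung controls had 19.5 and 33.0 CPM against 15.0 and 9.22. Every Vps34-deficient library lay below both controls of its tissue, and the log2 fold change was -0.72 ± 0.16 (SE; adjusted p = 0.00504). An upstream peak of Cd5, an inhibitory receptor, was lower (-0.58 ± 0.19, adjusted p = 0.0487), while both called peaks of Cd6, a related scavenger receptor, were higher (1.16 and 0.60).

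Proximal kinases and adaptors gave 7 lower and 1 higher call in 161 tested peaks, and the lower ones belonged to Fyn and Grap2. Fyn, a Src family kinase, had 4 less accessible introns among 43 peaks, and the clearest was chr10:39402434-39402935. There the spleen controls had 19.3 and 17.4 CPM against 11.7, 11.4, 13.2 and 12.4 without Vps34, and the lung controls had 14.8 and 18 against 11.1 and 9.44. The groups did not overlap in either tissue, and the log2 fold change was -0.62 ± 0.12 (SE; adjusted p = 0.00175), with -0.52, -0.52 and -0.73 at the other 3 Fyn peaks.

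Grap2 encodes Gads, the adaptor that links SLP-76 to Lat, and 3 of its 26 peaks were lower. At chr15:80619821-80620150 spleen controls had 4.83 and 4.39 CPM and Vps34-deficient libraries 1.66, 3.52, 3.65 and 3.26, and lung controls had 7.42 and 8.10 against 3.08 and 2.79. All Vps34-deficient libraries were again below the controls of their tissue (log2 fold change -0.92 ± 0.22, SE; adjusted p = 0.0106). The other two lay at -1.13 and -0.85, and the last of these (chr15:80639043-80639507) lay within 1 kb of the start of another gene, Gm49553. No peak of Lck, Zap70, Lat, Lcp2, Vav1 or Plcg1 was called in the averaged comparison.

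Themis, a regulator of TCR signal strength, carried the only higher call of this group, in an intron (chr10:28776717-28777547). It had 5.77 and 7.69 CPM in spleen controls and 13.0, 13.0, 10.5 and 13.8 in spleen Vps34-deficient libraries, while lung libraries had 4.14 and 3.68 CPM in controls and 4.82 and 5.15 without Vps34. The groups did not overlap in either tissue, and the averaged log2 fold change was 0.71 ± 0.17 (SE; adjusted p = 0.00908). The effect in lung less that in spleen was -0.55 ± 0.33 (SE; adjusted p = 0.767). This call was lost without spleen control replicate 1 (adjusted p = 0.0923).

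The branches to NF-kB and Ras gave 1 call in 56 peaks. Upstream of Rasgrp1, a diacylglycerol-responsive activator of Ras, a peak (chr2:117352335-117353098) had 6.55 and 8.38 CPM in spleen controls and 8.97, 10.7, 9.99 and 9.22 without Vps34, and 5.23 and 5.59 against 10.3 and 8.58 in lung. Vps34-deficient libraries lay above controls in both tissues (0.55 ± 0.15, SE; adjusted p = 0.0257), and the call was lost in 6 of 19 alternatives, with single libraries left out in 5 of them. No peak of Prkcq, Bcl10 or Malt1, which carry the signal to NF-kB, was called in the averaged comparison.

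Calcium and NFAT genes had 2 higher and 3 lower calls in 90 peaks, or 5.56%. Ppp3ca encodes a catalytic subunit of calcineurin, the calcium-dependent phosphatase that activates NFAT, and a peak downstream of it (chr3:136940795-136941567, nearest start Gm43357) had 25.9 and 30.4 CPM in spleen controls against 22.2, 18.5, 14.4 and 17.3 without Vps34. In lung it had 30.8 and 37.5 CPM against 15.6 and 19.7, and the log2 fold change was -0.77 ± 0.12 (SE; adjusted p = 0.000171). Groups did not overlap in either tissue at this peak.

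An intron of Ppp3ca (chr3:136761617-136761974) was lower by more. Spleen controls had 2.33 and 2.61 CPM against 1.10, 0.485, 0.521 and 1.70, and lung controls had 6.33 and 6.63 CPM against 0.832 and 1.72. The log2 fold change was -1.82 ± 0.33 (SE; adjusted p = 0.000704), the furthest from 0 among the called member peaks of this comparison.

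Rcan1 encodes an inhibitor of calcineurin, and its intronic peak (chr16:92443578-92444060, nearest start Gm46555), whose sequence is given above, had 22.1 and 27.1 CPM in spleen controls and 19.6, 15.4, 14.2 and 15.5 without Vps34. Lung controls had 20.7 and 21.8 CPM and lung Vps34-deficient libraries 7.98 and 8.36. The log2 fold change was -0.90 ± 0.14 (SE; adjusted p = 0.000157), and in both tissues all Vps34-deficient libraries were below the controls.

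In the opposite direction, an intron of Nfatc2, one of the NFAT transcription factors (chr2:168532403-168532821), had 2.15 and 3.30 CPM in spleen controls against 4.83, 3.76, 4.60 and 4.82, and 1.31 and 1.33 in lung controls against 5.49 and 3.43. Every Vps34-deficient library was above the controls of its tissue (1.10 ± 0.25, SE; adjusted p = 0.00558). An intron of Stim1, the calcium sensor of the endoplasmic reticulum (chr7:102347300-102347816), rose by 0.51 ± 0.15 (SE; adjusted p = 0.0292), a call that was lost in 8 of 19 alternatives. Neither Orai1, which encodes the channel that Stim1 opens, nor Nfatc3 had a call.

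**Figure D2:**
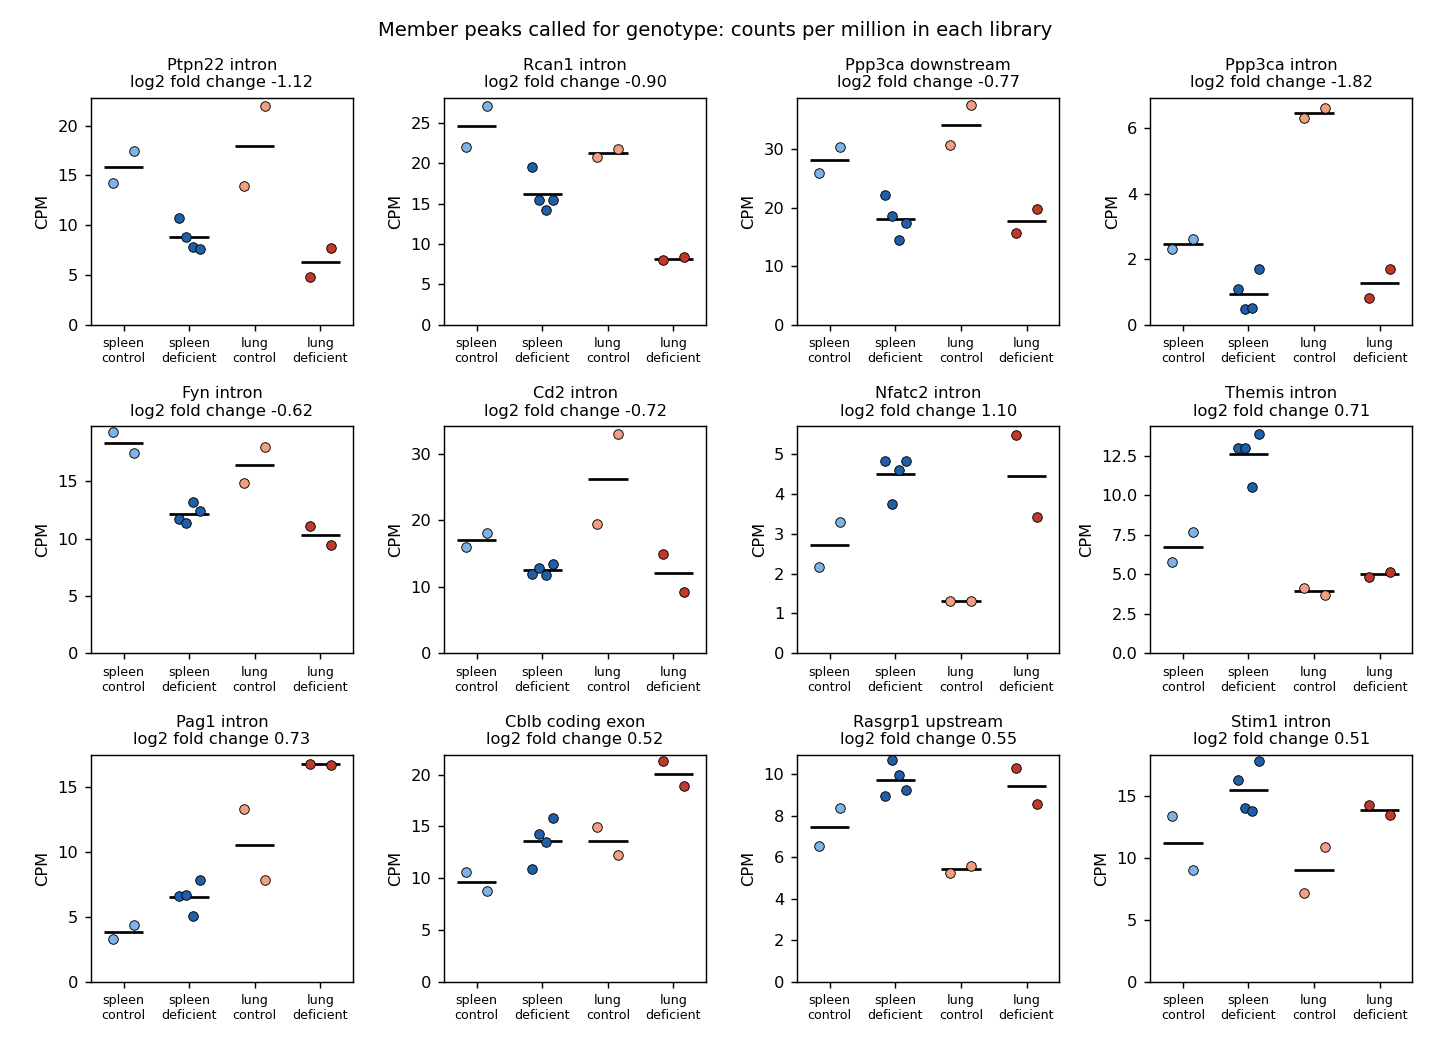
Accessibility in CPM (y axis, from 0) of the 6 lower and 6 higher member peaks with the smallest p-values for genotype, with one point per library, a line at each group mean and the averaged log2 fold change above each panel. In the lower peaks, every Vps34-deficient point lies below the controls of the same tissue, as at Rcan1, where lung controls have 20.7 and 21.8 CPM and Vps34-deficient libraries 7.98 and 8.36.

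Phosphatases and inhibitors gave 7 lower and 3 higher calls in 183 peaks. Ptpn22 encodes a phosphatase that acts on Lck and Zap70, and its intron (chr3:103907502-103908148, nearest start Gm15602) had the smallest p-value of all member peaks in this comparison. Spleen controls had 14.2 and 17.4 CPM against 10.8, 8.85, 7.82 and 7.66 without Vps34, and lung controls 14.0 and 21.9 against 4.82 and 7.72. The groups did not overlap in either tissue, and the log2 fold change was -1.12 ± 0.17 (SE; adjusted p = 0.00014). A peak upstream of the same gene was lower too (-0.62 ± 0.15, adjusted p = 0.00913).

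Ubash3b, which encodes the phosphatase Sts-1, had 4 less accessible introns among 35 peaks. At chr9:41105224-41105734 spleen controls had 17.2 and 18 CPM against 13.7, 14.9, 13.4 and 12.3, and lung controls 16.4 and 18 against 9.32 and 9.01. The log2 fold change there was -0.58 ± 0.13 (SE; adjusted p = 0.00533), and it ranged from -1.16 to -0.58 over the 4 peaks. The related Ubash3a had no call, and 1 intron of Dgkz, a diacylglycerol kinase, was lower (-0.70 ± 0.22, adjusted p = 0.0448).

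The higher calls in this group were at Cblb and Pag1. Cblb encodes a ubiquitin ligase that restrains TCR signals, and its peak at a coding exon (chr16:52142815-52143470) had 10.6 and 8.72 CPM in spleen controls against 10.9, 14.3, 13.5 and 15.8, and 14.9 and 12.3 against 21.3 and 18.9 in lung. Vps34-deficient libraries lay above controls in both tissues, the closest pair being 10.6 and 10.9 CPM (0.52 ± 0.13, SE; adjusted p = 0.0144), and the call was lost in 8 of 19 alternatives. Pag1 encodes the membrane anchor of the inhibitory kinase Csk, and a 210-bp peak in its intron (chr3:9698382-9698591) rose by 0.73 ± 0.18 (SE; adjusted p = 0.00915). No peak of Ptprc, Ptpn6, Csk, Ubash3a or Dgka was called in the averaged comparison, while in lung alone 1 peak of Csk (-0.96 ± 0.28, SE; adjusted p = 0.0476) and 1 of Dgka (-0.71 ± 0.21; adjusted p = 0.0432) were lower.

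Taking the tissues separately, 4 of 583 member peaks (0.686%) were called in spleen, against 1.46% of all peaks (0.441% higher and 1.02% lower), and 25 (4.29%) in lung, against 4.96% (1.22% higher and 3.74% lower). The spleen calls were the Ptpn22, Ppp3ca and Rcan1 peaks above, at -0.85 ± 0.20, -0.64 ± 0.15 and -0.61 ± 0.15, and the Themis intron at 0.91 ± 0.20 (SE). Without either spleen control no member peak was called in spleen. In lung 6 peaks were higher and 19 lower, and the count was 7 without lung control replicate 2, 12 without lung Vps34-deficient replicate 1 and 47 without lung control replicate 1. The balance went to 4 higher and 3 lower without lung control replicate 2, and to 8 and 9 without lung Vps34-deficient replicate 2. The sums over the myeloid marker promoters in both tissues (in spleen through Cebpa alone), and over the B cell and the Cd8a, Cd8b1 and Eomes promoters in lung, also separated the genotypes, as given above, and their part in the spleen and lung calls was not tested.

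The smallest p-values in lung were at the Rcan1 (-1.38 ± 0.20, SE) and Ptpn22 (-1.54 ± 0.26) introns, and the Ppp3ca intron had a larger fold change (-2.38 ± 0.49). An intron of Ubash3b (chr9:41064222-41064659) had 10.7 and 19.3 CPM in lung controls against 5.16 and 4.50 without Vps34, and 8.70 and 9.06 in spleen controls against 7.86, 7.15, 5.73 and 4.26. Its lung log2 fold change was -1.64 ± 0.29 (SE; adjusted p = 0.00138), and this call was lost without lung control replicate 2, the library at 19.3 CPM. The Ppp3ca peak downstream of the gene (-0.96 ± 0.19, SE), the Cd2 intron (-1.12 ± 0.23) and the Grap2 intron at chr15:80639043-80639507 (-1.47 ± 0.29) were lower in lung as well, and each of these calls was lost without lung control replicate 2 and without 1 of the lung Vps34-deficient libraries.

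Among peaks higher in lung without Vps34, the coding exon peak of Cd247 (chr1:165867696-165869087) had 6.76 and 7.95 CPM in lung controls against 12.1 and 12.9 (0.75 ± 0.19, SE; adjusted p = 0.0208). An intron of Plcg1, the phospholipase C gamma gene (chr2:160734318-160734722), had 18.3 and 21.1 CPM against 29.1 and 29.0 (0.56 ± 0.15, SE; adjusted p = 0.0249). An intron of Prkcq, which encodes protein kinase C theta (chr2:11173545-11174077), had 3.93 and 6.33 CPM against 9.32 and 9.22 (0.83 ± 0.24, SE; adjusted p = 0.0452). Lung groups did not overlap at any of the 3. Leaving out a single library ended each call, which was lung Vps34-deficient replicate 2 at Cd247, lung Vps34-deficient replicate 1 at Plcg1 and any of 7 libraries at Prkcq. An intron of Fyn (chr10:39386198-39386608) was higher at 1.96 and 1.33 CPM against 3.99 and 3.86 (1.29 ± 0.37, SE; adjusted p = 0.0426), and 6 libraries each ended this call. The Nfatc2 intron (1.77 ± 0.38) and the peak upstream of Rasgrp1 were the other two. The Nfatc2 call was lost without lung control replicate 2 or lung Vps34-deficient replicate 1, and the Rasgrp1 call when any 1 of 7 libraries was left out and in 11 of 20 alternatives in all.

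Over the 19 peaks lower in the averaged comparison, the median log2 fold change was -0.53 in spleen and -1.02 in lung, and 18 of the 19 lay further from 0 in lung, as did 7 of the 10 higher peaks and 346 of the 554 member peaks without a call. The lung effect rests on 2 libraries against 2. The sign was shared in 19 of 19 lower and 10 of 10 higher peaks, which the call on the average in part sets. The difference between the tissues was not called at any member peak, nor at any of the 97109 tested peaks (0%) by edgeR. An unadjusted p below 0.05 was found at 40 member peaks, or 6.86%, beside 7.27% of all peaks. The smallest adjusted p of the members was 0.455, and DESeq2 called 0 of them. Over all 583 member peaks the spleen and lung effects, which come from separate libraries but share peak widths and base composition, had a Pearson r of 0.48 and a Spearman rho of 0.50, beside 0.46 for both over all tested peaks.

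**Figure D3:**
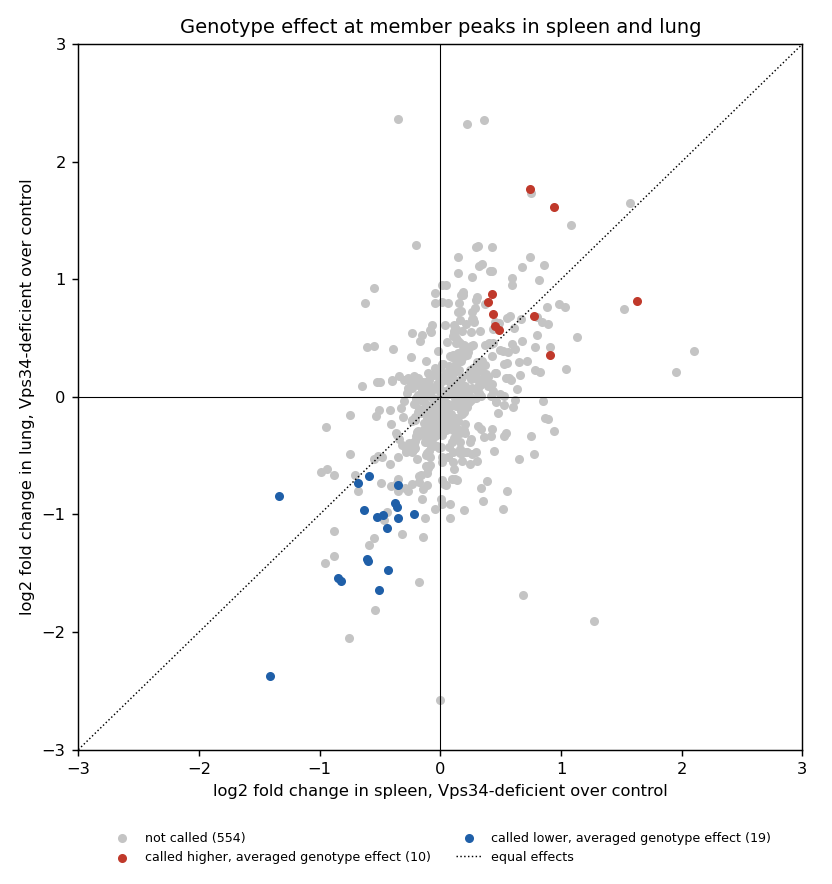
Log2 fold change of Vps34-deficient over control Tregs in spleen (x axis) and in lung (y axis), with one point per member peak and the dotted line at equal effects. The 19 peaks called lower in the averaged comparison lie at a median of -0.53 in spleen and -1.02 in lung, and 18 of them are further from 0 in lung, beside 346 of the 554 peaks without a call.

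At promoters no difference by genotype was called. None of the 66 peaks within 1 kb of a start of the member genes was called for genotype, in the average, in spleen or in lung, where 2.88%, 0.542% and 2.72% of all peaks within 1 kb of a start were called, and 6, 4 and 7 had an unadjusted p below 0.05, or 9.09%, 6.06% and 10.6%, beside 16.4%, 7.49% and 16.6% of all peaks within 1 kb of a start. DESeq2 also called 0 of the 66 in each of these comparisons. For the promoter peak with the highest level of each gene, the averaged log2 fold change lay between -0.42 and 0.25 over the 37 genes, with a median of -0.03. The lowest was Zap70, with 19.6 and 24.7 CPM in spleen controls, 12.8, 16.5, 19.5 and 20.6 in spleen without Vps34, 23.1 and 23.4 in lung controls and 14.6 and 18 in lung without Vps34. The spleen groups overlapped and the lung groups did not (-0.42 ± 0.13, SE; adjusted p = 0.0398, short of the fold threshold). Per kb of peak, promoter levels ran from 195 CPM at Cblb, 185 at Bcl10 and 142 at Malt1 to 14.5 at Ubash3b and 11.8 at Prkcq.

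To ask how lung and spleen Tregs differ at these genes, the tissues were compared with genotype in the model. Here 40 member peaks were more accessible in lung and 71 less accessible, or 19.0% in all, against 24.9% of all peaks. Among all peaks the balance was the other way, with 18.4% higher and 6.51% lower in lung, and the median log2 fold change was -0.15 over the members and -0.01 over all peaks. With loess offsets the member calls were 31 higher and 91 lower, and without lung Vps34-deficient replicate 2 they were 46 higher and 52 lower. Lung libraries had lower total counts than most spleen libraries, as given above, and the part of depth in these calls was not tested. The Nkx2-1 and Pax5 promoter peaks were higher in lung. The myeloid sum was 27.5 to 30.6 CPM in lung controls, above 14.7 to 23.1 in spleen, while lung Vps34-deficient libraries had 15.7 to 18.6. The promoter peaks of Ikzf2, a Treg marker, had log2 fold changes of -0.49 and -0.03. The part of other cells in these calls was not tested either.

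The width of the peaks moved with this balance. Of all peaks up to 250 bp wide, a limit chosen after the values were seen, 47.7% were higher and 2.69% lower in lung, and of wider peaks 5.97% were higher and 8.12% lower. Member peaks were called higher at 22 and lower at 7 of 98 narrow peaks, and higher at 18 and lower at 64 of 485 wider peaks, or 3.71% and 13.2%. Calls touched 32 of the 37 genes, of which 7 had only higher peaks, 10 only lower peaks and 15 both.

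**Figure D4:**
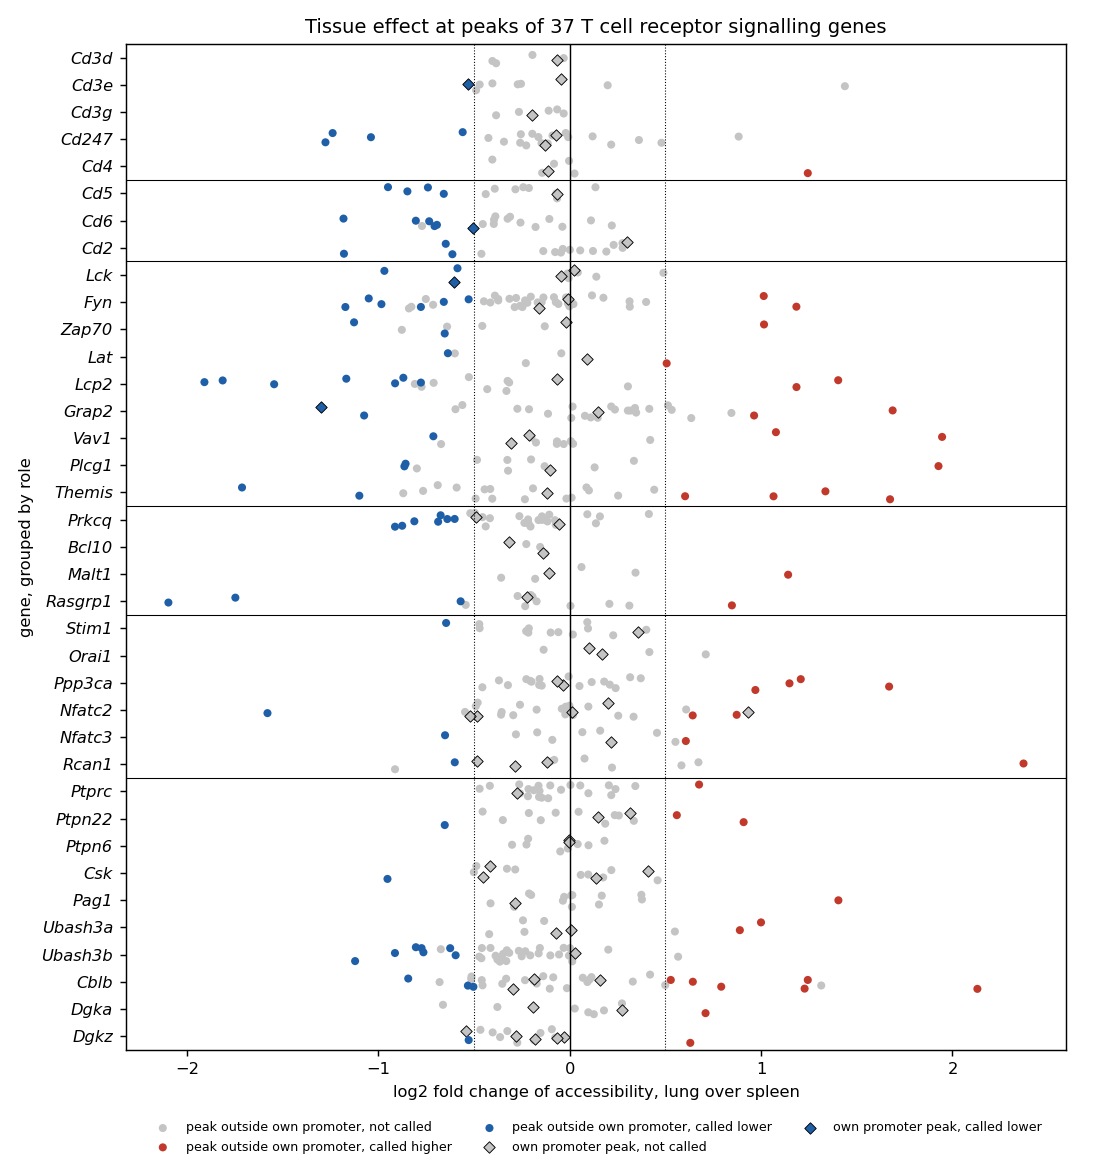
Log2 fold change of accessibility in lung over spleen Tregs (x axis) for each peak of each gene (y axis, grouped by role), with called peaks in color and own promoter peaks as diamonds. Of the called peaks 40 are higher and 71 lower in lung, and Prkcq, Ubash3b, Cd5 and Cd6 have lower calls only.

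Surface modulators had 13 lower and no higher calls among 48 peaks, with 6 at Cd6, 4 at Cd5 and 3 at Cd2. Upstream of Cd5, a peak at chr19:10740513-10741035, which lay within 1 kb of the start of A430093F15Rik, had 24.6 to 34.0 CPM in the 6 spleen libraries and 18.6, 23.1, 18.3 and 16.4 in the lung libraries, which did not overlap (log2 fold change -0.66 ± 0.12, SE; adjusted p = 0.000125). Downstream of Cd6, a peak at chr19:10787361-10787745 had 14.9 to 21.4 CPM in spleen and 8.51, 10.5, 13.6 and 8.58 in lung (-0.80 ± 0.14, SE; adjusted p = 0.000129).

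At the receptor, the coding exon peak of Cd247 had the smallest p-value among the member peaks lower in lung. Spleen libraries had 16.6 to 23.6 CPM with a median of 21.6, and lung libraries had 6.76, 7.95, 12.1 and 12.9, so every lung library was below every spleen library. The log2 fold change was -1.04 ± 0.13 (SE; adjusted p = 9.6e-07). The gene had 4 lower calls in 23 peaks and no higher one.

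Proximal kinases and adaptors gave 15 higher and 26 lower calls in 161 peaks, and each of the 9 genes had at least 1 lower call. Lcp2, the SLP-76 gene, had 7 lower and 2 higher calls among 19 peaks and a median log2 fold change of -0.71, and its upstream peak at chr11:34042774-34043202 had 11.9 to 17.6 CPM in spleen and 8.29, 5.59, 11.3 and 5.36 in lung (-0.87 ± 0.18, SE; adjusted p = 0.000508). Fyn had 6 lower and 2 higher calls, and its intron at chr10:39521945-39522407, whose sequence is given above, had 12.1 to 16.3 CPM in spleen with a median of 14.9, against 7.85, 7.66, 6.82 and 7.72 in lung. Lung libraries were all below the spleen libraries at this peak (-0.98 ± 0.14, SE; adjusted p = 6.63e-06).

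Themis had introns that moved both ways. The one that was higher without Vps34 was lower in lung (-1.10 ± 0.18, SE; adjusted p = 3.16e-05), as was chr10:28735983-28736412, with 2.75 to 6.07 CPM in spleen against 1.09, 0.736, 1.16 and 1.29 (-1.71 ± 0.29, SE; adjusted p = 6.84e-05). A 210-bp peak at chr10:28861407-28861616 was higher, with 0.862 to 2.62 CPM in spleen against 5.89, 1.77, 6.15 and 6.43 in lung (1.67 ± 0.28, SE; adjusted p = 5.07e-05), and there 1 lung control overlapped the spleen range. Narrow peaks of Grap2 (chr15:80657984-80658195, 1.69 ± 0.24) and Plcg1 (chr2:160758500-160758709, 1.93 ± 0.32) were higher in lung as well, with 1.29 to 3.17 CPM in spleen against 6.54, 3.83, 8.15 and 6.01 in lung at Grap2, and 0.603 to 2.55 against 4.58, 1.91, 6.82 and 4.07 at Plcg1, where 1 lung control overlapped. Of the other genes in this group, Lck had 3 lower calls and no higher one, Zap70 and Plcg1 each had 1 higher and 2 lower, Vav1 had 2 higher and 1 lower, and Grap2 had 2 of each.

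Prkcq had 7 lower and no higher calls among 31 peaks, from -0.91 to -0.60. Its intron at chr2:11254405-11254847 had 11.5 to 16.2 CPM in spleen and 7.85, 7.66, 11.1 and 7.72 in lung (-0.64 ± 0.14, SE; adjusted p = 0.00106), with no overlap. Rasgrp1 had 3 lower calls and 1 higher, Malt1 had 1 higher and Bcl10 none.

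Calcium and NFAT genes were the only role with more higher than lower calls besides the inhibitors, at 8 and 4 of 90 peaks. Ppp3ca contributed 4 higher calls and no lower one, from 0.97 to 1.67. The largest of these, in a 214-bp intronic peak (chr3:136789652-136789865), had 0.345 to 2.21 CPM in spleen and 3.93, 2.36, 4.99 and 4.50 in lung (1.67 ± 0.32, SE; adjusted p = 0.000256). Nfatc2 had 2 higher calls and 1 lower. The Rcan1 intron that was lower without Vps34 was lower in lung too (-0.60 ± 0.15, SE; adjusted p = 0.00291).

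Phosphatases and inhibitors gave 14 higher and 13 lower calls in 183 peaks. Cblb had 6 higher and 3 lower calls among 36 peaks, and its intron at chr16:52147119-52147877 had the smallest p-value of all member peaks. Spleen libraries had 65.2 to 81.1 CPM with a median of 68.9, lung controls 93.0 and 89.4 and lung Vps34-deficient libraries 128 and 122, so that all lung libraries were above all spleen libraries (0.64 ± 0.07, SE; adjusted p = 1.1e-07). A second Cblb intron, at chr16:52181875-52182404, went the other way, with 16.3 to 20.3 CPM in spleen against 10.3, 12.5, 7.98 and 10.9 (-0.84 ± 0.13, SE; adjusted p = 2.32e-05).

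The Pag1 intron had 3.27 to 7.80 CPM in spleen and 13.3, 7.80, 16.8 and 16.7 in lung, so that the lowest lung library stood at the top of the spleen range (1.40 ± 0.17, SE; adjusted p = 6.55e-07). Ubash3a had 2 higher calls among 9 peaks, with a median log2 fold change of -0.07 over all 9. An intron of Ubash3a (chr17:31210101-31210741) had 5.43 to 8.51 CPM in spleen and 10.3, 14.9, 15.8 and 12.9 in lung (0.89 ± 0.15, SE; adjusted p = 9.1e-05), while Ubash3b had 7 lower calls and no higher one, with a median of -0.33 over its 35 peaks. Ptpn22 had 2 higher calls and 1 lower. At chr9:41130492-41130952 Ubash3b had 5.65 to 10.2 CPM in spleen and 5.89, 4.56, 3.49 and 2.57 in lung (-1.12 ± 0.19, SE; adjusted p = 5.55e-05), where 1 lung control overlapped the spleen range.

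**Figure D5:**
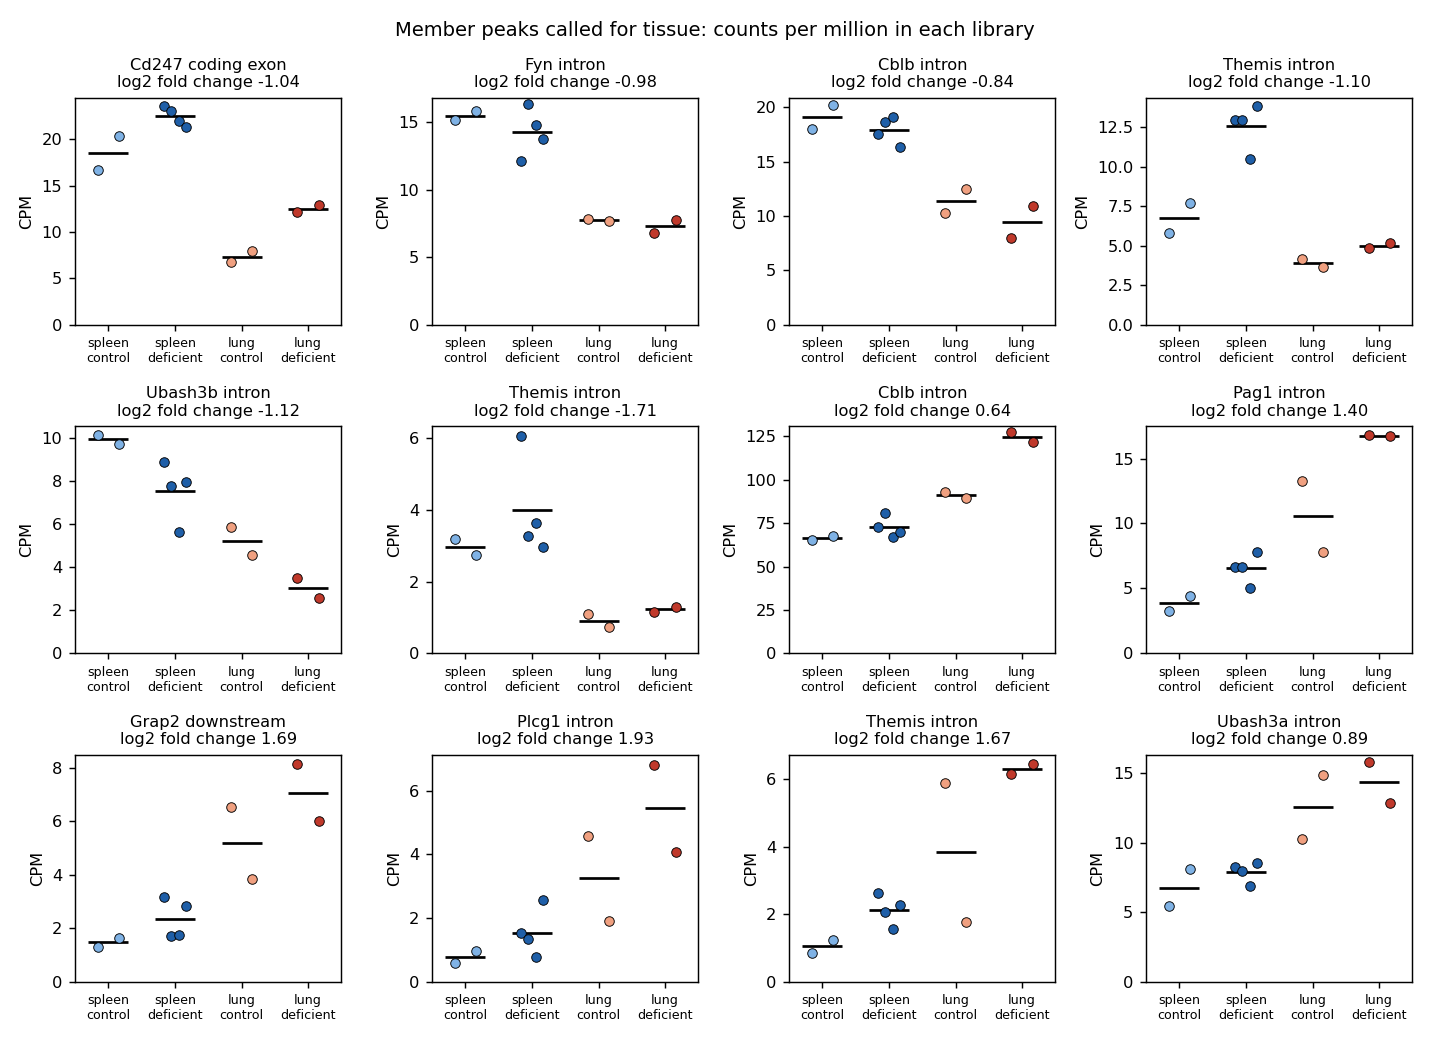
Accessibility in CPM (y axis, from 0) of the 6 lower and 6 higher member peaks with the smallest p-values for tissue, with one point per library, a line at each group mean and the log2 fold change of lung over spleen above each panel. At the Cblb intron all 4 lung libraries lie above 65.2 to 81.1 CPM, the spleen range, and at the Fyn intron all 4 lie below 12.1 to 16.3 CPM.

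At promoters, 4 of 66 peaks were called and all were lower in lung, against 9.29% of all peaks within 1 kb of a start in both directions and 3.2% lower. These were peaks of Cd6 (-0.51), Cd3e (-0.53), Lck (-0.60) and Grap2 (-1.30). The Cd6 promoter had 16.7 to 19.9 CPM in spleen and 10.5, 13.5, 16 and 10.3 in lung, with no overlap (-0.51 ± 0.13, SE; adjusted p = 0.00524). The peak of Grap2 had only 1.47 to 3.30 CPM in spleen and 1.31, 0.442, 1.16 and 0.643 in lung. Its 250 bases before the RefSeq start (chr15:80623233-80623482, plus strand, GRCm38.p6) are the only promoter stretch printed, since the Lck and Cd3e peaks lay off such stretches and that of Cd6 overlaps an exon, and they held no match to the 6 motifs.
Grap2 promoter: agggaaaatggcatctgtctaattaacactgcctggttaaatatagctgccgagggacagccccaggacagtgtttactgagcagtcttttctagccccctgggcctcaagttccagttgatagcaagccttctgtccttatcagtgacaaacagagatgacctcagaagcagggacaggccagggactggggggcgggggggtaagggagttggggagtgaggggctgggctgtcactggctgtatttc
For the highest promoter peak of each gene, the tissue log2 fold change lay between -0.51 and 0.35. Stim1 had the smallest adjusted p, with 102 to 114 CPM in spleen and 134, 157, 142 and 125 in lung (0.35 ± 0.06, SE; adjusted p = 7.47e-05), which did not overlap but fell short of the fold threshold.

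The tissue difference was also taken within each genotype. In control Tregs 31 member peaks were higher and 29 lower in lung, against 15.4% of all peaks called (11.8% higher and 3.53% lower), and the count of 60 fell to 17 without spleen control replicate 1 and 31 without spleen control replicate 2. With library size scaling the split was 24 and 37, and with loess offsets 23 and 42. In Vps34-deficient Tregs 26 were higher and 48 lower, against 17.2% of all peaks (12.5% higher and 4.72% lower), with 20 and 65 on library size scaling and 22 and 17, or 39 in all, without lung Vps34-deficient replicate 2. Over the 71 peaks lower in lung, the median log2 fold change was -0.74 in control and -0.85 in Vps34-deficient Tregs.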

How the data were processed

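Bulk ATAC-seq was measured in 10 libraries of sorted Tregs. The authors deposited a table of raw counts per peak, with no normalization, for 97385 peaks. The submitters' processing notes name cutadapt 1.9, Picard 1.65, SAMtools, MACS2 2.1.0.20150603 and bedtools with GRCm38, whereas the published methods name mm9. The peaks matched GRCm38, since 51.2% of 21922 gene starts lay in a peak against 2.67% and 2.82% after shifts of the peaks. Between 91.5% and 96.5% of counts were even, as when both mates of a fragment are counted. The methods give the spleen group sizes the other way round, and the labels were followed.

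Peaks were tested with edgeR 4.0.16 in R 4.3.3, by TMM scaling, filterByExpr and its quasi-likelihood test, and p-values were adjusted across 97109 peaks by the Benjamini-Hochberg method. The averaged effects came from a model of tissue and genotype, and the others from a model of the 4 groups. CPM values are counts scaled to the library total. A prior count of 2 was used for log CPM values and not for the fold changes, which are the estimates of the fitted models. The code was tested on simulated data. Alternatives were library size scaling, median-of-ratios factors, other count filters, halved counts, loess offsets, DESeq2 1.42.0, a replicate block, fits of the compared groups only, no fold threshold, a 2 kb distance and each library left out. A chromosome Y covariate was added after seeing the data.

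In each effect and direction the 6 called member peaks with the smallest p were named, and genes with 3 or more calls were described. Other peaks were chosen after their values were seen. The members and lists were chosen with earlier results of these data known. Pik3c3 is not described, since these peaks do not read out its deletion.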

Additional observations from a re-analysis of the deposited data

How the results depend on the processing

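Over the 40 values of named peaks, none reversed its direction, 687 of 776 alternative values kept the call and 89 lost it, and 22 of the 40 kept it under every alternative. In the averaged comparisons, the number of called member peaks ran from 18 to 36 for genotype and from 92 to 124 for tissue with each library left out. Within spleen, the genotype count of 4 became 0 with the replicate block and 10 with only the 2 groups compared, and ran from 0 to 6 with libraries left out. Within lung, the count of 25 became 13 with the replicate block and 9 with only those groups, and ran from 7 to 47. The tissue count in control Tregs, 60, became 35 with only those groups and ran from 17 to 66. In Vps34-deficient Tregs the count of 74 became 21 with the replicate block and ran from 39 to 93. The balance of calls did turn. In the control tissue comparison it went from 31 higher and 29 lower to 24 and 37 on library size scaling and 23 and 42 with loess offsets. Without lung control replicate 2 it was 16 and 47 there. For averaged genotype it went from 10 and 19 to 13 and 12 without lung Vps34-deficient replicate 2. For lung genotype it went from 6 and 19 to 4 and 3 without lung control replicate 2. For tissue in Vps34-deficient Tregs it went from 26 and 48 to 22 and 17 without lung Vps34-deficient replicate 2. The cause of these shifts was not tested. Same-numbered libraries of different groups had correlations of their deviations from -0.098 to 0.063. With so few libraries per group, these values cannot show whether the numbers pair the libraries. Chromosome Y levels in spleen and lung were 56.9 and 67.6 CPM in control replicate 1 and 7.03 and 12.8 in control replicate 2. Without Vps34 they were 9.88 and 21.4 CPM in replicate 1 and 64.8 and 63.4 in replicate 2. Whether spleen and lung libraries came from the same animals was not tested. The replicate block gave 21 and 89 calls in the averaged comparisons. Under loess offsets 74.6% of the averaged tissue calls were lower, against 64.0%. With 2 libraries in 3 of the 4 groups and 9405823 to 14172956 counts in lung, changes at peaks of a few CPM were the least precise.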

Other observations

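A further 72 genes of the pathway, listed with earlier results of these data known, had 766 tested peaks, none of them shared with the 37 genes. Without Vps34, 16 of these peaks were higher and 55 lower in the averaged comparison, or 9.27%, against 7.57% of all peaks. The lower calls were most numerous at Itpr1, an inositol trisphosphate receptor that releases calcium (9 of 59 peaks), at Ptprj, a receptor phosphatase (9 of 23), and at Nck2, an adaptor (7 of 33). An intron of Sla, which encodes an adaptor that lowers TCR levels (chr15:66785334-66785759), had 13.7 and 16.5 CPM in spleen controls against 2.07, 2.00, 2.00 and 2.98, and 25.3 and 36.3 in lung controls against 6.49 and 9.87. The log2 fold change was -2.38 ± 0.18 (SE; adjusted p = 3.49e-09), and the groups did not overlap in either tissue. An intron of Itpr1 (chr6:108309927-108310320) had 5.08 and 5.91 CPM in spleen controls against 1.66, 1.09, 1.30 and 1.42, and 15.3 and 21.8 against 2.00 and 3.00 in lung (-2.40 ± 0.21, SE; adjusted p = 4.54e-08). Ptprj had an intron (chr2:90547170-90547677) at 3.79 and 5.08 CPM in spleen controls against 0.966, 0.849, 1.30 and 1.70, and at 9.16 and 13.5 against 1.33 and 2.68 in lung (-2.15 ± 0.25, SE; adjusted p = 2.42e-06). All 3 peaks were lower in every Vps34-deficient library than in either control of its tissue. Higher without Vps34 were peaks of Nfatc1 (0.78 ± 0.16, SE, with 1 higher and 5 lower calls among its 33 peaks) and Evl (0.68 ± 0.16). So was a peak downstream of the kinase gene Tec (0.65 ± 0.15), whose nearest start, at 5811 bp, was that of Txk, also among these genes.

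Between tissues, 71 of these 766 peaks were higher and 56 lower in lung, or 16.6%, against 24.9% of all peaks. The 3 higher peaks with the smallest p were 210 to 212 bp wide and lay in introns of Skap1 (1.66 ± 0.16, SE), Itpr2 (1.58 ± 0.17) and Wipf1 (1.46 ± 0.16). Lower in lung were peaks of Tespa1 (-1.32 ± 0.20), Braf (-0.90 ± 0.14) and Vav3 (-1.37 ± 0.22). At the Braf peak (chr6:39606860-39607274) spleen libraries had 16.2 to 19.5 CPM and lung libraries 6.76, 9.42, 10.6 and 10.3, with no overlap. The genotype effect did not pass the test as different between tissues at any of the 766 peaks by edgeR, with 74 (9.66%) at an unadjusted p below 0.05 beside 7.27% of all peaks, and DESeq2 called 1.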
